A study of Mus musculus with 42 samples.

Results

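The baseline liver transcriptome of chow-fed APOE*3-Leiden mice was described in the 10 libraries whose diet label is 32 weeks of chow, 1 library per mouse. The genes described are those with a mean of at least 20 CPM in these libraries, where CPM is the count of a gene relative to the library total, after scaling each library with TMM factors that correct for differences in composition. This held for 6461 of 54446 annotated genes (11.9%), of which 6354 code for proteins. The 6461 genes held between 94.5% and 95.4% of all counts of each chow-fed mouse. They are called members in the following. The question was which genes make up the liver transcriptome of the healthy reference group and how far their levels differ between mice of the same group, and the spread is given as the coefficient of variation (CV), the SD as a percentage of the mean of the 10 mice.

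All 42 mice of the study were female and carried the human APOE*3-Leiden transgene, which impairs the clearance of lipoproteins and makes the mice prone to hyperlipidemia, and liver was taken after 32 weeks. The chow group (n = 10) was kept on maintenance chow as the healthy reference, and its age is not stated separately. The WTD group (n = 16) was 8 to 14 weeks old at the start and received a Western-type diet with 15% cocoa butter, 40.5% sucrose and 1% cholesterol, first for a run-in of 3 weeks and then for the 32 weeks of the study, with 0.05% sodium cholate added from week 22. The third group (n = 16) received the same diet with atorvastatin, given after the run-in at 3.0 mg/kg/day and from week 5 at 4.5 mg/kg/day. No chow-fed mouse lacked the transgene, so that its effect cannot be seen in these data. Mice were housed in groups on a light-dark cycle, and neither the cage of a mouse nor its time of killing is given in the labels or methods.

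The liver exports most proteins of blood plasma, and a few secreted proteins therefore take up a large part of its mRNA. Hepatocytes also run the urea cycle, the synthesis of bile acids and cholesterol and the oxidation of fatty acids, and many of these pathways follow food intake and the circadian clock. Sex-biased liver genes follow the pattern of growth hormone secretion, and acute phase genes follow cytokines.

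Before any value is read, 4 of the 10 libraries need mention. Mouse 1 held transcripts of skeletal muscle: the 21 genes of a muscle list summed to 5915 CPM in mouse 1 and to between 38.9 and 101 CPM in the other 9 chow-fed mice. The list was written after its genes had been seen in the data. The same mouse held 1643 CPM of B and plasma cell markers, against 22.9 to 61 CPM in the others. Mice 2, 5 and 6 lacked counts for many weakly expressed genes. Of 1296 genes with a group mean of 1 to 2 CPM, 59.7% had no count in mouse 2, 46.0% in mouse 5 and 27.7% in mouse 6, while this share was between 3.63% and 9.03% in the other 7 mice. Total counts did not set these mice apart, since they ranged from 17202366 to 35410623 over the 10 mice with a median of 20405093.5, and mice 2, 5 and 6 had 17342797, 21850293 and 18156840. Markers of exocrine pancreas (12 of 12 genes) had no count, and T and NK cell markers summed to between 5.81 and 31 CPM.

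The distance of a mouse from its group was measured as the median, over all members, of its absolute deviation from the group mean of log2 CPM. Each deviation was multiplied by the square root of n/(n - 1), a factor for the group size n. Mouse 2 had the largest distance (0.298), followed by mouse 5 (0.246), mouse 6 (0.206), mouse 4 (0.185) and mouse 1 (0.165). The other 5 mice lay between 0.134 and 0.145. Over the group the distance was 0.179 ± 0.0558 (SD, n = 10) on chow, while WTD gave 0.167 ± 0.0526 (n = 16) and WTD with atorvastatin 0.148 ± 0.0359 (n = 16). The difference from chow was smaller than the spread between mice in both comparisons (permutation tests over mice, two-sided, adjusted p = 0.562 and 0.208). When every library above 20% by this measure was left out, in whichever group, the chow mean was 0.143 ± 0.0193 (n = 7), and the difference was -0.0043 from WTD and -0.00044 from WTD with atorvastatin (permutation tests, adjusted p = 0.987 for both).

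**Figure D1:**
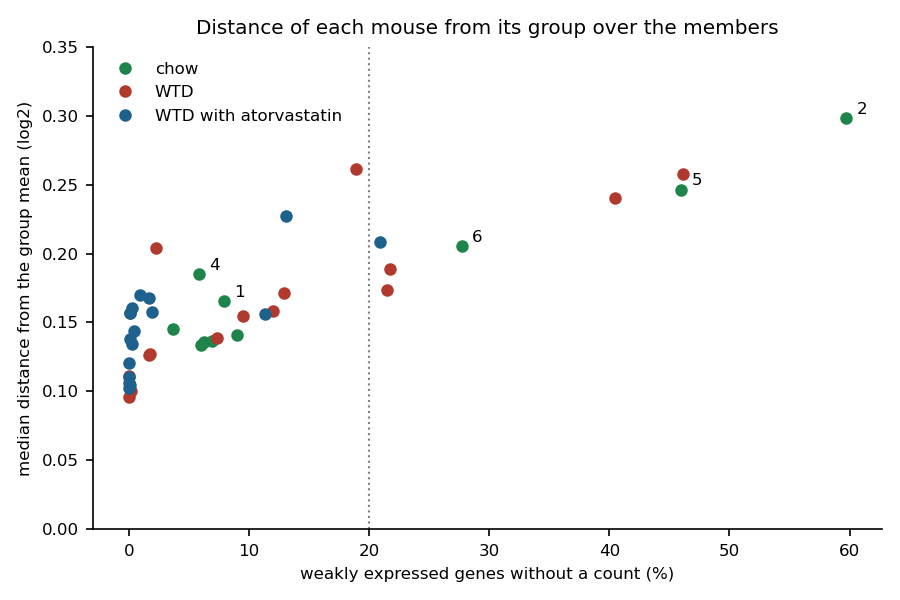
Median distance of each of the 42 mice from its group mean over the members (vertical axis, log2 CPM) against the share of weakly expressed genes without a count (horizontal axis, %), with 1 point per mouse and chow-fed mice 1, 2, 4, 5 and 6 numbered. Chow-fed mice 2, 5 and 6 lie to the right of the dotted line at 20%, at distances of 0.298, 0.246 and 0.206, and 5 other chow-fed mice lie between 0.134 and 0.145.

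Albumin dominated the transcriptome. Alb, the main carrier protein of plasma, took 8.38% ± 0.981 (SD, n = 10) of all counts, from 7.14% to 10.3% per mouse. Its level was 79158 CPM in the lowest mouse (mouse 2), 90511 CPM in the median and 120522 CPM in the highest (mouse 7). Together with the next 9 genes by abundance it made up 18.9% ± 1.33 of the counts, and the first 100 and 1000 genes made up 39.7% ± 1.15 and 69.3% ± 0.836. The share of the 10 most abundant genes thus differed by less than 4 percentage points between any pair of mice, from 17.5% to 21.4%.

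Apolipoproteins, the protein part of lipoproteins, were also among the genes with the most counts. Apoe, the ligand that lets the liver take up lipoprotein remnants, had 31810 CPM in mouse 4, a median of 38856 and 43917 CPM in mouse 2. Since the mice also carry a human APOE gene, reads of the transgene that align to the mouse gene and reads of mouse Apoe itself cannot be told apart. Apoa1, the main protein of HDL, ranged from 9155 (mouse 4) to 14906 CPM (mouse 8) with a CV of 18.2%. Apoa2, a second HDL protein, ranged from 4028 (mouse 10) to 6572 CPM (mouse 6). Apob, the structural protein of VLDL, was steadier, at 3142 ± 349 CPM (CV 11.1%), and Apoa4, which also follows feeding, was the least steady of the 10 apolipoprotein members, with 255 CPM in mouse 5 and 657 CPM in mouse 1 (CV 35.4%).

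Compared per exon length, as TPM, the order changed. Alb remained first with 90604 ± 10495 TPM (SD, n = 10) and Apoe second with 40524 ± 2929 TPM. The mitochondrial gene mt-Co1, a subunit of cytochrome c oxidase, had 26085 ± 2870 TPM. Apoa2, with an exon length of only 537 bases, stood at 23454 ± 3371 TPM, and Apoa1 at 21796 ± 3381 TPM, a difference smaller than the SD of either. Next came mt-Cytb (15967 TPM), Ttr, the carrier of thyroid hormone and retinol-binding protein (13047 TPM), Ahsg, a plasma glycoprotein that binds calcium phosphate (11247 TPM), and Fabp1, which binds fatty acids inside hepatocytes (10733 ± 2060 TPM).

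**Figure D2:**
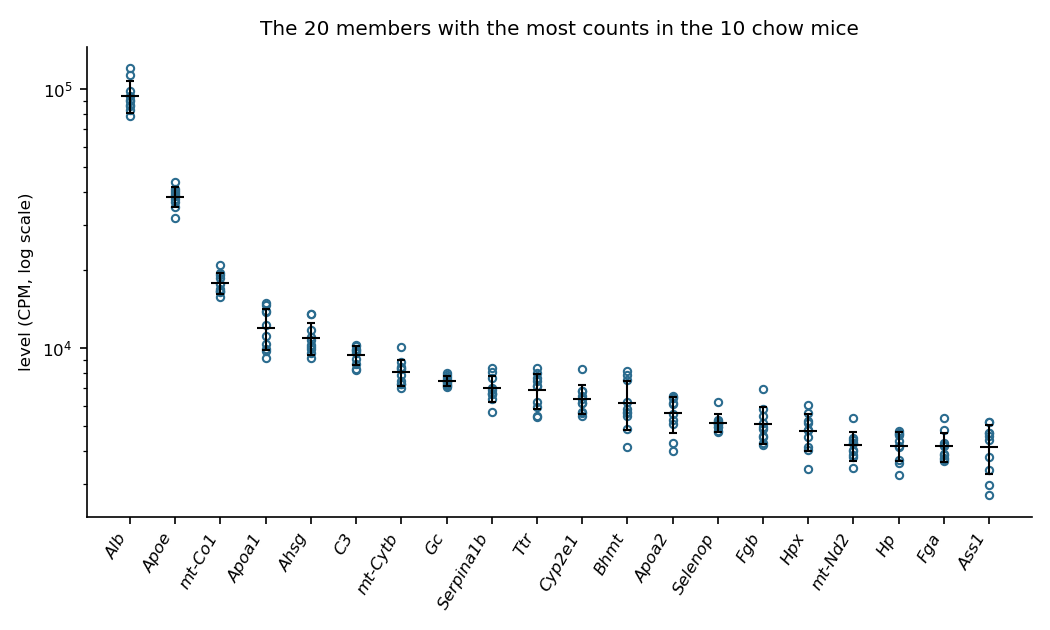
Levels of the 20 members with the most counts in the chow-fed mice, in CPM on a log axis, with 1 circle per mouse and the mean and SD (n = 10) as bars. Alb lies between 79158 and 120522 CPM, Gc between 7069 and 8033 CPM with the shortest bar for its level, and Bhmt between 4142 and 8183 CPM.

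Some abundant liver genes were uncertain in these counts. Reads that fit more than 1 place or more than 1 gene were not counted, which were 5.15% and 5.80% on average on chow. Trf, Serpina3k, Apoc2 and Apoc4 were listed at 0 in all 10 mice, although the liver is known to make these plasma proteins. The mitochondrial genes mt-Co2, mt-Co3 and mt-Atp6, which have near-identical copies in the nuclear genome, were counted at 52.0, 56.8 and 35.4 CPM. Levels of such genes, and of members of the Serpina1, Saa, Mup and Cyp3a families with their near-identical paralogs, may lack reads. The rule used a mean of 20 CPM, and Itgav (20.02 CPM ± 4.08) and Ube2a (20.01 CPM ± 3.88) were the members just inside it, while Timm9 (19.998 CPM ± 3.80) and C1galt1c1 (19.99 CPM ± 5.41) were just outside. Of the members, 4714 had at least 20 CPM in each mouse, and 40 would fall below the mean of 20 CPM without mouse 1.

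The median CV of the members was 18.3% (jackknife SE 2.31 over the mice), and 5% of the members lay below 8.83% and 5% above 34.9%. The CV was below 10% for 544 members (8.42%), above 50% for 82 and above 100% for 19. Counting error alone would give a median CV of 3.25%, so that for most members the spread between mice exceeded it. The median ratio of the highest to the lowest mouse was 1.82, and for 2421 of the 6447 members with more than 3 counts in each mouse the ratio exceeded 2. Each mouse gave 1 library, so that the spread between mice and that of sampling and library preparation cannot be told apart.

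The spread depended on the libraries described above. Without mice 2, 5 and 6 the median CV was 13.7%, and without mouse 1 as well, over 6 mice, it was 13.1%. Then 1740 members had a CV under 10% and 12 had a CV over 100%. Leaving out mouse 1 alone left the median at 18.3%. One mouse lay far from the other 9 for 847 members (13.1%). With normally distributed values chance meets this criterion in about 1 of 20 genes. The far mouse was mouse 2 for 48.1% and mouse 5 for 25.7% of these members.

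The CV was larger for members with lower levels. Its median was 21.8% for the 3305 members with 20 to 50 CPM, 16.6% for 1552 members with 50 to 100 CPM, 13.4% for 1311 members with 100 to 500 CPM, 11.2% for 235 members with 500 to 2000 CPM and 11.9% for the 58 members above 2000 CPM. Counting error contributed 4.11% in the first of these classes and 0.380% in the last. Without mice 1, 2, 5 and 6 the medians were 14.8% and 10.2% in these 2 classes.

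**Figure D3:**
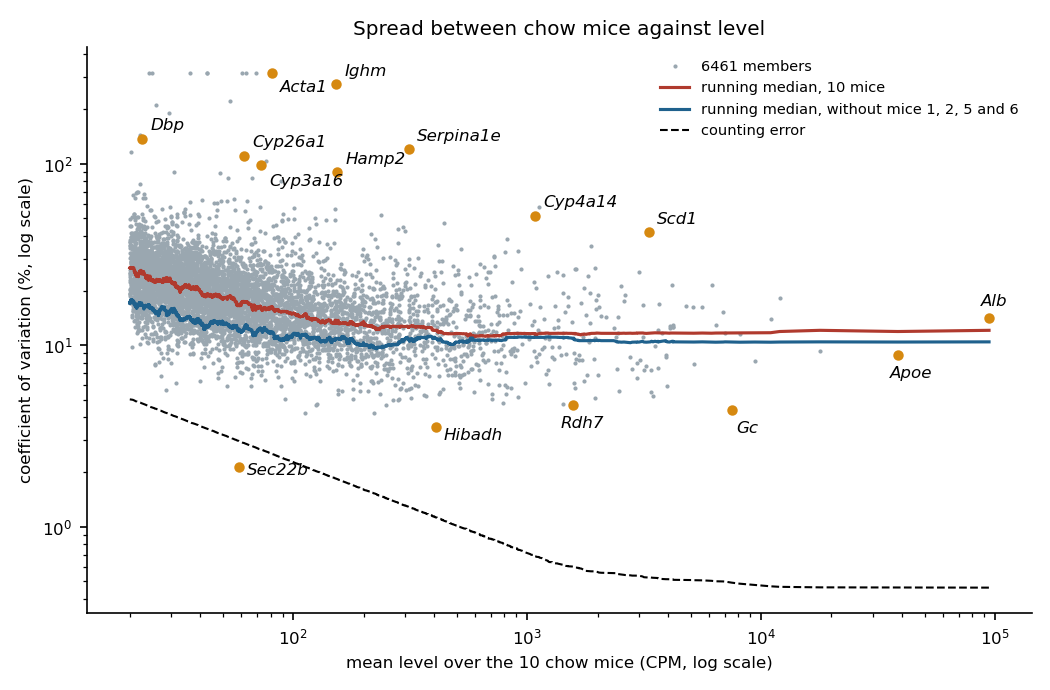
CV over the 10 chow-fed mice (vertical axis, %, log scale) against the mean level (horizontal axis, CPM, log scale), with 1 point per member, running medians over 10 mice and over 6 mice, and the CV from counting error as a dashed line. Acta1 and other muscle genes lie at the top near 316%, Ighm lies at 274%, Dbp and Serpina1e above 100%, and Sec22b lies lowest at 2.14%, below the dashed line.

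The members with the highest CV came from muscle. Acta1, the actin of skeletal muscle, had 807 CPM in mouse 1, Myh1 and Myh2, fast myosin heavy chains, 696 and 429 CPM, Atp2a1, the calcium pump of muscle, 628 CPM, Tnnt3, a fast troponin, 600 CPM, Ckm, creatine kinase of muscle, 429 CPM, and Mb, myoglobin, 361 CPM. In the other 9 chow-fed mice these genes were at or near 0, with means of at most 0.302 CPM. They are members only through mouse 1, and their CV of about 316% is the value that a single mouse above 9 mice near 0 gives. Ighm, the heavy chain of immunoglobulin M, was 1337 CPM in mouse 1 and 11.5 to 35.7 CPM in the others, and its CV was 274% over 10 mice and 26.9% over the 6 mice without mice 1, 2, 5 and 6. Jchain, the joining chain of secreted immunoglobulin, was 113 CPM in mouse 1 and at most 7.44 CPM elsewhere.

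Genes of the circadian clock had the highest median CV of the lists with at least 4 members other than skeletal muscle when all 10 mice were taken (44.5% over 12 members, against 18.3% over all members). Over the 6 mice without mice 1, 2, 5 and 6 it was 38.7%, below the 45.3% of the male-biased list. Dbp, a transcription factor driven directly by the clock, had 21.9, 41.0, 80.7 and 71.1 CPM in mice 4, 5, 9 and 10, and between 0 and 3.80 CPM in the other 6. Its target-binding relative Tef had 80.3, 73.2, 112 and 123 CPM in these 4 mice and 29.6 to 51.1 CPM in the others. Nr1d1, the repressor REV-ERB alpha, followed the same division, with 126, 131, 229 and 167 CPM against 26.0 to 64.8 CPM, and so did Nr1d2 (56.9 to 78.6 CPM against 14.2 to 31.3 CPM).

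The activating arm of the clock had the opposite order. Arntl, which encodes BMAL1, the partner of CLOCK, had 24.4, 8.71, 20.6 and 22.2 CPM in mice 4, 5, 9 and 10 and between 52.9 and 68.5 CPM in the other 6, so that the mice fell into groups that did not overlap. Nfil3, which represses the targets of DBP, was 35.3 to 78.1 CPM in these 4 mice and 96.4 to 126 CPM in the others. Npas2 and Cry1, partners and repressors of the same loop that lie below 20 CPM on average, were at most 9.60 and 11.8 CPM in these 4 mice and at least 20.2 and 15.2 CPM in the others. Clock itself was steady, between 35.0 and 47.0 CPM (CV 11.1%). Per1 and Per2, below 20 CPM on average, did not follow the division. Per1 had 4.28 to 13.3 CPM in these 4 mice against 4.16 to 14.7 CPM, and Per2 10.4 to 22.4 CPM against 10.8 to 22.1 CPM. The division was taken from the clock values, and the share of all members that divide in this way is not given. The 4 mice included mouse 5, which lacked weakly expressed genes, and 3 mice that did not. Time of killing is not given, and its part in these values was not tested.

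Some genes of protein folding in the cytosol showed a division into the same mice, again without a share of all members to set beside it. Hspa8, the constitutive chaperone HSC70, had 713, 962, 1284 and 1043 CPM in mice 4, 5, 9 and 10 and 1447 to 1736 CPM in the other 6. Hsp90aa1, the inducible HSP90, had 150 to 209 CPM in these 4 mice and 274 to 376 CPM in the others, and Hsph1, a co-chaperone of HSC70, 28.8 to 55.6 CPM against 71.0 to 99.6 CPM. Rbm3, an RNA-binding protein that is induced by mild cold, was higher in these 4 mice (40.6 to 60.5 CPM against 27.1 to 36.9 CPM). Hspd1, the mitochondrial chaperone HSP60, did not follow them, and with 463 to 587 CPM it was the steadiest of the 12 heat shock members (CV 6.95%).

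**Figure D4:**
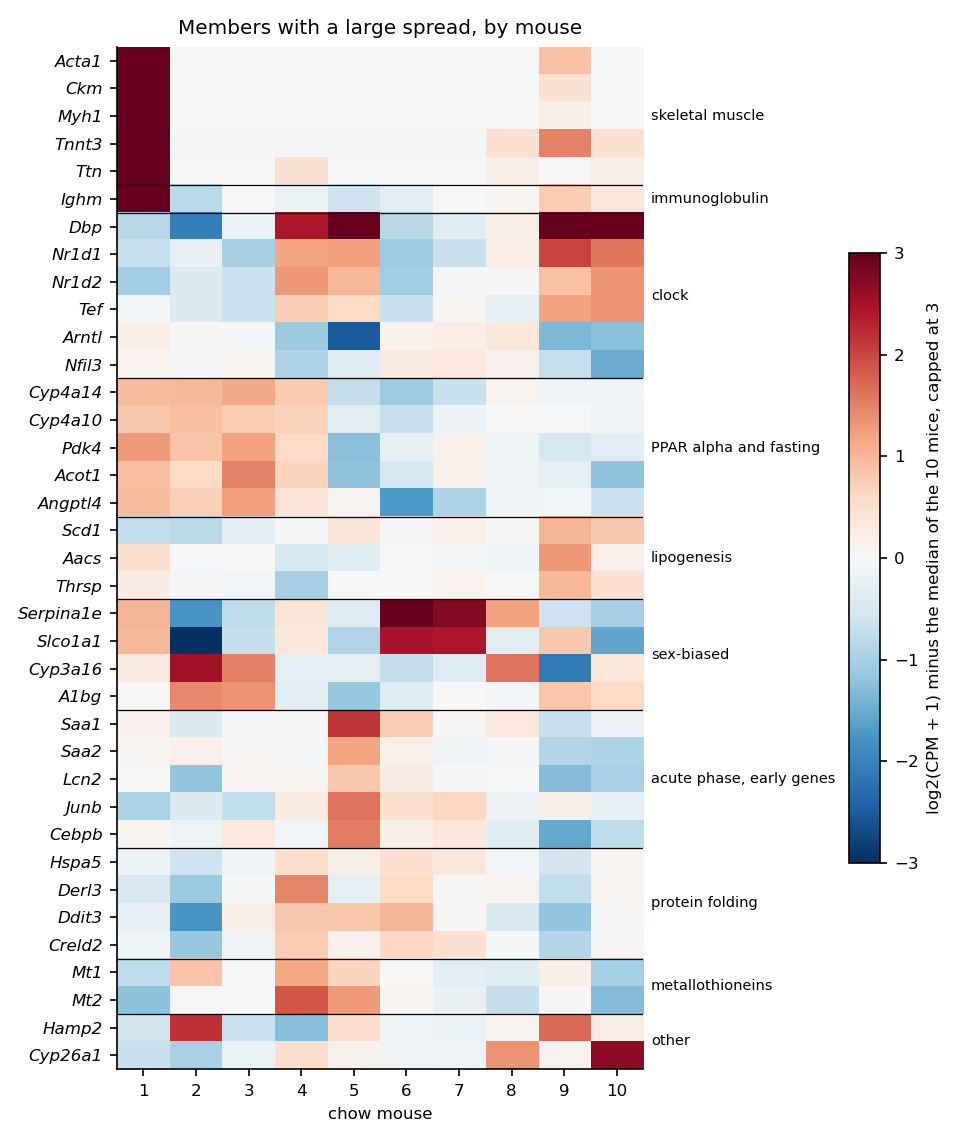
Members with a large spread by mouse: each cell gives log2(CPM + 1) of a gene in 1 chow-fed mouse minus the median of the 10 mice, on a colour scale that ends at 3 in either direction. Muscle genes are high in mouse 1, Dbp and Nr1d1 are high and Arntl low in mice 4, 5, 9 and 10, and Cyp4a14, Cyp4a10, Pdk4 and Acot1 are high in mice 1 to 4.

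Some targets of PPAR alpha, the nuclear receptor that switches on fatty acid oxidation in fasting, divided the mice in another way. Cyp4a14, which hydroxylates fatty acids, had 1671, 1699, 1909 and 1501 CPM in mice 1 to 4 and 410 to 936 CPM in mice 5 to 10. Cyp4a10, its close relative, had 1092 to 1256 CPM in mice 1 to 4 and 418 to 673 CPM in the others. Pdk4, which shuts glucose carbon out of the citric acid cycle, had 65.5 to 108 CPM against 17.9 to 48.4 CPM, and Acot1, a thioesterase of fatty acyl-CoA, 65.2 to 121 CPM against 17.8 to 47.7 CPM. Angptl4, an inhibitor of lipoprotein lipase, followed with 112 to 207 CPM against 25.6 to 91.6 CPM. The ranges did not overlap for any of these 5 genes, but the division was taken from these same values. The share of all members that divide in this way is not given. Below 20 CPM on average, Acot2 (15.3 to 25.6 CPM against 3.445 to 17.6 CPM) and Fgf21 (2.68 to 10.2 CPM against 0 to 6.82 CPM) overlapped. So did Cyp4a31 (6.50 to 16.9 CPM against 4.69 to 17.3 CPM). No label gives a batch, a cage or a day that mice 1 to 4 shared, and the part of such factors was not tested.

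Most genes of fatty acid oxidation differed less. The list of 28 members had a median CV of 14.0%, and the median correlation between its members over the 10 mice was 0.54, against 0.01 for all pairs of members. The summed level of the list was nonetheless 18544 to 21480 CPM in mice 1 to 4 and 13056 to 16564 CPM in mice 5 to 10. This division of the sum was not tested. Cpt1a, the gatekeeper of mitochondrial oxidation, lay between 234 CPM (mouse 1) and 357 CPM (mouse 4). Hadha, Acadvl and Etfdh, enzymes of the mitochondrial spiral, had CVs of 9.77%, 7.38% and 7.42%.

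Some genes of lipid synthesis were highest in mice 9 and 10. Scd1, the desaturase that makes oleate, had 6026 CPM in mouse 9 and 5163 CPM in mouse 10, and was lowest in mice 1 and 2 (1766 and 1710 CPM). Fasn, fatty acid synthase, was likewise highest in mice 9 and 10 (1148 and 910 CPM), and so were Thrsp, a promoter of lipogenesis (414 and 288 CPM), Elovl6, a fatty acid elongase (178 and 145 CPM), and Srebf1, the transcription factor above them (340 and 366 CPM). Srebf1 in mouse 7 (339 CPM) was as high as in mouse 9. The 20 members of this list had a median CV of 23.1%, which was 22.3% over the 6 mice without mice 1, 2, 5 and 6. Others had another order, such as Aacs, which activates acetoacetate (180 CPM in mouse 9, 102 CPM in mouse 1 and 80.0 CPM in mouse 10). Fads1, a desaturase of polyunsaturated fatty acids, was its steadiest member (CV 7.27%).

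Genes of cholesterol synthesis varied together between mice. The summed level of 25 genes was 8982 CPM in mouse 9 and between 5491 (mouse 3) and 7350 CPM (mouse 10) in the other mice. The median correlation between its 24 members was 0.57 over the 10 mice and 0.77 over the 6 mice without mice 1, 2, 5 and 6. Sqle, squalene epoxidase, had 195 CPM in mouse 9 and 101 to 104 CPM in mice 2, 3 and 5. Hmgcs1, HMG-CoA synthase, had 815 to 1525 CPM. Srebf2, the transcription factor of the pathway, differed least (CV 10.2%).

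Sex-biased genes, whose level in liver depends on growth hormone, also had a large spread, although all mice were female. The 8 members of the male-biased list had a median CV of 42.8% (45.3% over the 6 mice) and the 17 members of the female-biased list one of 38.3% (33.7%). Serpina1e, an alpha-1 antitrypsin that is higher in males, had 1081 and 913 CPM in mice 6 and 7 and 38.6 to 309 CPM in the other 8. Slco1a1, a male-biased organic anion transporter, was also highest in mice 6 and 7 (63.8 and 61.5 CPM), with 0 to 22.0 CPM in the others. Selenbp2 was highest in these 2 mice too (63.8 and 60.3 CPM, against 20.4 to 45.1 CPM), whereas Cyp2d9 and Mup20 were not highest in them both.

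On the female-biased side, Cyp3a16, a cytochrome P450 of female liver, had 242, 129 and 120 CPM in mice 2, 8 and 3 and 8.77 CPM in mouse 9. A1bg, a plasma glycoprotein of female mice, had 2267 and 2128 CPM in mice 2 and 3 and 376 CPM in mouse 5. Cux2, a transcription factor of the female program, had 10.1 CPM in mouse 5 and 42.8 to 103 CPM in the other 9. Mouse 5 was also lowest for Cyp2c69 (330 CPM against 489 to 1272 CPM). Cyp2b13 and Cyp2b9, equally female-biased, were steadier (CV 14.7% and 16.8%). Both mice 2 and 5 lacked weakly expressed genes.

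Acute phase genes were highest in mouse 5. Saa1, serum amyloid A, had 217 CPM in mouse 5 and 30.1 to 81.3 CPM in the other 9 (CV 82.8%, and 21.7% over the 6 mice without mice 1, 2, 5 and 6). Saa2 had 86.2 CPM in mouse 5 and 19.2 to 41.4 CPM elsewhere, Lcn2, lipocalin-2, 44.1 CPM and 9.46 to 29.3 CPM, and Serpina3n, a protease inhibitor, 534 CPM and 199 to 370 CPM. Orm2, an acid glycoprotein, was high in mouse 5 (73.9 CPM) and mouse 2 (59.2 CPM). Abundant members such as Hp, haptoglobin, and Crp did not stand out in mouse 5, with 4708 CPM in a range of 3257 to 4799 CPM and 399 CPM in a range of 355 to 531 CPM. All 3 fibrinogen genes, Fga, Fgb and Fgg, had their maximum in mouse 5 (5366, 6957 and 5160 CPM).

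Immediate early genes, which respond within minutes to stimuli and to handling of tissue, had a median CV of 40.4% over 8 members. Junb had 146 CPM in mouse 5 and 23.4 to 71.2 CPM in the others. Egr1 had 149, 125 and 124 CPM in mice 7, 6 and 9 and 35.8 CPM in mouse 10. Fos was not a member, with 3.86 ± 3.10 CPM. The transcription factor Cebpb, which activates acute phase genes, was highest in mouse 5 as well (60.7 CPM, against 6.31 to 25.7 CPM), and so was Il1r1, the receptor of interleukin-1 (74.9 CPM, against 17.1 to 37.6 CPM).

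The unfolded protein response, by which cells adapt the endoplasmic reticulum to their secretory load, had the highest median correlation among the lists with at least 12 members. The median correlation between its 20 members was 0.72 over 10 mice and 0.78 over 6 mice, with a median CV of 25.3%. Some smaller lists were higher. Over 10 mice these were skeletal muscle (11 members, 0.95) and MHC class II (4 members, 0.78). Over 6 mice they were Kupffer cell markers (7 members, 0.84) and MHC class II (0.80). Hspa5, the chaperone BiP, had 2675, 2635 and 2402 CPM in mice 4, 6 and 7 and 1211 and 1280 CPM in mice 2 and 9. Hyou1 (392, 423 and 419 CPM) and Pdia6 (646, 691 and 671 CPM) had the same 3 mice on top. Creld2 had 191, 170 and 154 CPM in these mice, and 49.8 and 60.2 CPM in mice 2 and 9. Derl3, a factor of protein degradation from the endoplasmic reticulum, reached 116 CPM in mouse 4 and at most 63.9 CPM elsewhere. Atf4, which is regulated mainly in translation, was steady at 140 ± 10.7 CPM (CV 7.67%).

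Metallothioneins and glucocorticoid targets (9 members, median CV 34.2%) did not share their order. Mt1 and Mt2, which bind zinc, were highest in mouse 4 (198 and 155 CPM), where Fkbp5, a classical glucocorticoid target, was unremarkable (52.8 CPM). Fkbp5 was highest in mice 6 and 7 (92.7 and 79.9 CPM) and lowest in mouse 5 (22.8 CPM). Hamp2, a paralog of hepcidin, had 470 and 334 CPM in mice 2 and 9 and 41.5 to 148 CPM in the others. Hamp, hepcidin itself, which limits iron uptake, lay between 398 and 893 CPM with a CV of 26.8%, and was 620 CPM in mouse 2. Cyp26a1, which degrades retinoic acid, had 245 CPM in mouse 10, 96.3 CPM in mouse 8 and 18.3 to 51.9 CPM in the other 8.

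Bile acid synthesis combined variable and steady steps. Cyp7a1, the rate-limiting enzyme, ranged from 55.9 CPM in mouse 5 to 235 CPM in mouse 2 (CV 36.3%, 22.4% over 6 mice), and Cyp8b1, which sets the share of cholic acid, from 195 CPM in mouse 10 to 472 CPM in mouse 6 (CV 30.0%). Cyp27a1, of the alternative pathway, lay between 562 and 728 CPM (CV 8.78%), and Abcb11, the bile salt export pump, between 782 and 1028 CPM (CV 8.77%). The 21 members had a median CV of 13.3%.

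Genes of the hepatocyte zones were taken as separate lists. Periportal genes (12 members) had a median CV of 20.2% and a median correlation of 0.43, and pericentral genes (8 members) 12.7% and 0.23. Ass1 and Cps1, urea cycle enzymes of the periportal zone, were both low in mice 2 and 4. Ass1 had 2965 and 2711 CPM in these mice and 5190 CPM in mouse 10, and Cps1 1773 and 2134 CPM in these mice and 3493 CPM in mouse 7. Glul, glutamine synthetase of the pericentral zone, had 1014 to 1474 CPM. Cyp2e1, which oxidizes ethanol, had 8302 CPM in mouse 4 and 5482 to 6842 CPM in the other 9, and the pericentral genes summed to 13446 CPM in mouse 4, above 9832 to 11751 CPM elsewhere. Without Cyp2e1 they summed to 5143 CPM in mouse 4 and to between 4323 and 5007 CPM in the other mice, so that most of this gap was Cyp2e1 itself.

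The lists of plasma proteins, coagulation and complement had low CVs, which for their high level were ordinary. Relative to the running median of the CV at the same level, the median was 1.00 for plasma proteins, 0.99 for coagulation, 0.94 for complement and 0.80 for the proteasome. In other lists with secreted proteins this ratio was higher, at 1.51 for apolipoproteins, 1.73 for the acute phase response and 2.11 for major urinary proteins. Median CVs were 11.7% for 25 plasma protein members, 11.9% for 20 coagulation members, 11.9% for 17 complement members and 11.9% for 33 members of the proteasome, the protease that degrades tagged proteins in the cell. Over the 6 mice without mice 1, 2, 5 and 6 they were 11.1%, 8.87%, 9.48% and 7.78%. Gc, the vitamin D binding protein, stayed between 7069 and 8033 CPM (CV 4.41%), and Rbp4, the retinol carrier, between 3231 and 3702 CPM (CV 5.25%). C3, the central complement protein, had 9403 ± 765 CPM (CV 8.13%). Exceptions were Serpina1e and A1bg, the 2 of 25 plasma protein members above the median CV of all members. Ribosomal protein genes (77 members) had a median CV of 15.8% and a median correlation of 0.65.

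**Figure D5:**
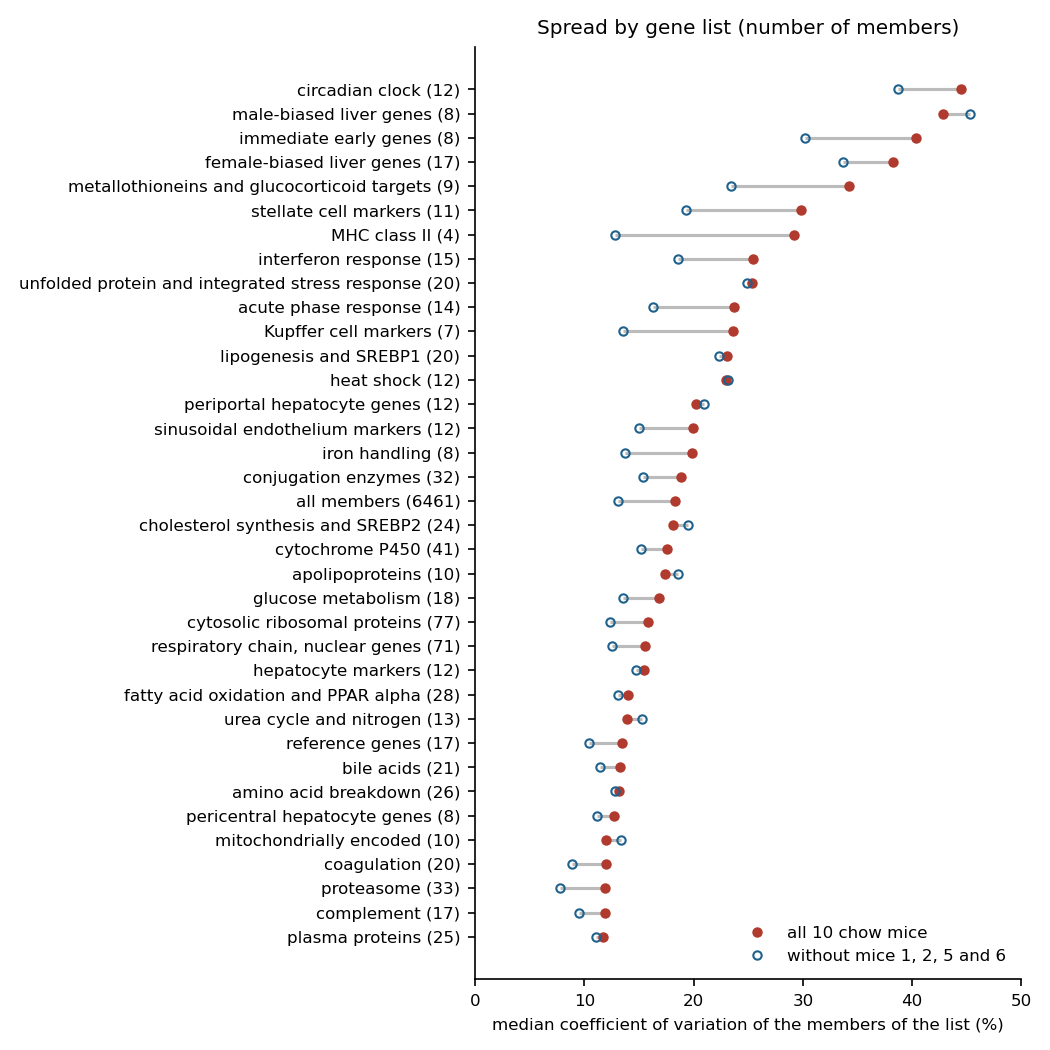
Median CV (%) of the members of each gene list over the 10 chow-fed mice (filled circles) and over the 6 mice without mice 1, 2, 5 and 6 (open circles), for lists with at least 4 members other than skeletal muscle, where the number of members is in brackets. Circadian clock (44.5%) and male-biased genes (42.8%) are on top, and plasma proteins (11.7%) are at the bottom.

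The steadiest member was Sec22b, which carries vesicles between endoplasmic reticulum and Golgi. It had 56.3 CPM in the lowest, 58.7 CPM in the median and 60.4 CPM in the highest mouse, and its CV of 2.14% was below the 2.97% that counting error gives on average. In the WTD and the atorvastatin group its CV was 17.2% and 18.9%. A CV this low is the extreme of 6461 values. Hibadh, an enzyme of valine breakdown, had 406 ± 14.3 CPM (CV 3.52%). Other members with a CV of at most about 5% were St13, a co-chaperone (4.23%), Tbcel (4.26%), Rdh7, a retinol dehydrogenase (4.66%), Ppp2r5a, a subunit of phosphatase 2A (4.66%), Rac1, a small GTPase (4.67%), Phyh, of peroxisomal alpha-oxidation (4.75%), Gcdh, of lysine breakdown (4.81%), Maob, monoamine oxidase B (4.97%), and Dpyd, the first enzyme of pyrimidine breakdown (5.07%).

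Genes commonly used as references covered a wide range. Of 19 such genes, 17 were members. Eef2 and Eef1a1, elongation factors of translation, had CVs of 6.16% and 8.80%, Sdha, of the respiratory chain, 6.82%, B2m 8.87%, Rplp0 9.84%, Gapdh 10.9%, Actb 11.2% and Ppia 11.4%. Hprt (15.1%) and Gusb (22.5%) varied more. Tuba1b had a CV of 36.3% over all 10 mice and of 12.2% without mice 1, 2, 5 and 6. A CV below 10% in each of the 3 groups was found for 64 members. For 13 of these the fitted level in both WTD groups lay within 0.1 (log2) of chow, among them Nudt4, Rpl10, Hnrnpu, Brd2, Becn1, Eef1g and Gabarap. They were chosen by these values, which are therefore no test.

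Markers of other liver cells were low and had a spread that changed with the libraries. Clec4f, a Kupffer cell lectin, had 75.2 CPM in mouse 5, a median of 158 and 221 CPM in mouse 7, and all 7 Kupffer cell members together had a median CV of 23.6% (13.5% over 6 mice) and a median correlation of 0.64. Stab2, a scavenger receptor of sinusoidal endothelium, had 62.8 CPM in mouse 5 and 150 CPM in mouse 2. Dcn, decorin, of stellate cells, had 314 CPM in mouse 6 and 199 to 255 CPM in the other mice, and Col1a1, collagen type I, 81.0 CPM in mouse 5 and 15.1 to 42.6 CPM elsewhere. In bulk tissue, fewer cells of a type and less RNA per cell cannot be told apart. Cd74 and H2-Aa, of antigen presentation by MHC class II, were highest in mouse 1 (157 and 102 CPM), the mouse with 1643 CPM of B and plasma cell markers.

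Correlations between single genes were computed for 12 pairs with a textbook relation, and for the first principal component of the members with total counts and with the share of missing weakly expressed genes. Of these 14 relations, 2 passed an adjusted p of 0.05 for Pearson's r (permutation tests, two-sided). H2-Aa and Cd74 had r = 0.92 and rho = 0.90 (p = 0.00012 and 0.00069, adjusted p = 0.0017 and 0.0097, n = 10), and r = 0.87 without the 2 mice farthest from the median of H2-Aa. The second pair was Cyp4a14 and Pdk4 (adjusted p = 0.0291), where mice 1 to 4 lie apart from the others, so that no pooled coefficient is given. Within mice 5 to 10 the relation was not seen, with r = 0.14 and rho = 0.20 (exact permutation tests, p = 0.815 and 0.714, n = 6), and r = 0.18 without the 2 farthest.

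Mice also fell into separate clusters for Arntl and Dbp, with r = 0.46 and rho = 0.43 within the 6 mice of high Arntl (exact permutation tests, p = 0.401 and 0.419), and r = 0.92 over the 4 mice left without the 2 farthest. For Hmgcs1 and Sqle, r was 0.80 and rho 0.79 within the 7 mice of higher Sqle (exact permutation tests, p = 0.0228 and 0.0480, not adjusted), and r was 0.52 without the 2 of these mice farthest from their median, so that the relation rests on them. Cyp7a1 and Cyp8b1 had r = 0.07 and rho = -0.03 (permutation tests, p = 0.853 and 0.946, adjusted p = 0.918 and 0.946), and r = 0.03 without the 2 farthest mice. Srebf1 and Fasn had r = 0.55 and rho = 0.61 (permutation tests, p = 0.0993 and 0.0679, adjusted p = 0.232 and 0.190), and r = 0.55 without the 2 farthest mice. Mt1 and Fkbp5, Cyp2e1 and Cyp2f2, and Fos and Egr1 had adjusted p of 0.712, 0.617 and 0.837 for r.

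The spread on chow was next compared with that of the other groups, by a limma test on the absolute deviations of log2 CPM from the group median. These deviations, and their means given below, include the factor for group size used for the distances. The test was fitted over 15574 genes and adjusted for all of them. Of 6453 members tested, 4 had a larger and 0 a smaller spread on chow than on WTD at an adjusted p under 0.05. Over all 15574 genes the test called 0.661%, so that the 4 members are below the background share, and 385 members had an unadjusted p under 0.05. The 8 members that the filter on low counts removed were Acta1, Myh1, Myh2, Atp2a1, Ckm, Mb, Ttn and Tnnc2, which are high only in mouse 1. Against WTD with atorvastatin, 8 members had a larger and 2 a smaller spread, where 0.777% of all genes were called and 789 members had an unadjusted p under 0.05. In simulated data the test recovered 50 of 200 genes with a spread added in WTD. A spread added on chow, and libraries that lack weakly expressed genes, were not simulated, so this rate need not hold for these calls. Few calls are not read as an equal spread.

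Serpina1e had a mean absolute deviation of 1.37 (log2) on chow and 0.38 on WTD (limma, adjusted p = 0.0280). Foxo1, a transcription factor that insulin keeps out of the nucleus, had 0.39 and 0.12 (limma, adjusted p = 0.0104), and its CPM lay between 15.8 and 36.5 on chow. Ntrk2, a neurotrophin receptor, had 0.56 and 0.19 (limma, adjusted p = 0.0205), with 16.5 to 62.0 CPM on chow, and Rad51b, a factor of DNA repair, 0.73 and 0.23 (limma, adjusted p = 0.0500), with 61.2 CPM in mouse 3 and 7.13 to 32.3 CPM in the other 9. Foxo1, Ntrk2 and Rad51b were also called against WTD with atorvastatin. The 2 members with a smaller spread on chow than on WTD with atorvastatin were Cyp2c54 (0.20 and 0.85, limma, adjusted p = 0.0427) and Coq8a, of coenzyme Q synthesis (0.13 and 0.54, limma, adjusted p = 0.0332). After removal of all libraries with more than 20% of weakly expressed genes uncounted, limma called 0 members in either comparison, with 211 and 354 at an unadjusted p under 0.05.

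The median CV of the members was 17.7% in the WTD group and 14.2% in the atorvastatin group. Members were ordered by CV in a partly shared way: Spearman's rho across genes, which are not independent, was 0.39 between chow and WTD and 0.34 between chow and WTD with atorvastatin. When the CV was divided by the running median at a similar level, rho was 0.26 and 0.35. Of the 646 members in the highest 10% by CV on chow, 199 (30.8%) were in the highest 10% on WTD as well. Dbp was variable in all groups (CV 137%, 114% and 86.1%), while Cyp26a1 had 110% on chow (55.5% without mouse 10) and 21.7% and 16.2% on the other diets, and Cyp2f2, a periportal cytochrome P450, 11.9% on chow and 86.3% on WTD.

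The level of members on chow was compared with the other groups by the quasi-likelihood test of edgeR with an adjusted p under 0.01. On WTD, 2946 of 6453 members tested differed, 886 higher and 2060 lower, where the test called 33.4% of all genes, 17.8% higher and 15.6% lower. Members were chosen by their level on chow, which enters the test and favours lower calls on WTD, so nothing is read from the split. On WTD with atorvastatin, 2302 members differed, 922 higher and 1380 lower, against 25.1% of all genes. Both comparisons share the chow-fed mice. Of all members tested, 45.7% were called on WTD. Of the 646 members in the lowest 10% by CV, 67.8% differed on WTD (71 higher and 367 lower), and of 638 tested members in the highest 10% 43.3% (106 higher and 170 lower), although the median absolute log2 fold change was smaller in the steady class (0.36 and 0.44). The median level was 177 CPM in the class of lowest and 29.4 CPM in that of highest CV. The CV and this test use the same chow-fed mice, and the difference between the classes was not tested.

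Among the lists, all 24 members of cholesterol synthesis were lower on WTD than on chow, as were 35 of 41 cytochrome P450 members, 25 of 26 members of amino acid breakdown, 22 of 28 members of fatty acid oxidation and 16 of 17 female-biased members. A1bg was 1127 ± 646 CPM on chow and 13.6 CPM on average on WTD, and Sqle 140 ± 30.7 CPM and 13.4 CPM. All 4 MHC class II members were higher on WTD. These counts are to be read beside the 45.7% of members and 33.4% of all genes called on WTD. For lower calls alone these were 2060 of 6453 members and 15.6% of all genes, and for higher calls 886 members and 17.8%. Members were chosen by their level on chow, which favours lower calls, so the lower calls within a list are not read as a result. Of the 12 clock members 1 was higher and 3 were lower, a share close to that of all genes, and of the 20 members of the unfolded protein response 15 were lower and 0 higher. Of the 17 reference genes 5 were higher and 4 lower, close to the share of all members, with Actb, cytoplasmic actin, higher by 1.05 (log2, SE 0.0824) and Gusb by 1.70 on WTD.

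Promoter sequences were compared between steady and variable members, because a TATA box is a known feature of promoters of regulated genes. RefSeq promoters of build GRCm38.p6 were matched by symbol for 5160 of the 6461 members, and the letters TATAAA were searched on the strand of the gene at 20 to 40 bases before the start. They were found in 87 members (1.69%) and in 650 of 27025 genes with a promoter (2.41%). Their share was 3.21% (16 of 498, 95% Wilson interval 1.99% to 5.16%) in the highest 10% by CV and 3.08% (16 of 520, 1.90% to 4.94%) in the lowest 10%. Over the 6 mice without mice 1, 2, 5 and 6 the shares were 5.00% (3.41% to 7.28%) and 2.09% (1.17% to 3.71%). With the CV divided by the running median at a similar level, a split chosen after the data were seen, they were 5.91% (4.14% to 8.35%) and 1.54% (0.782% to 3.01%). Members with TATAAA had a median level of 144 CPM, and those without 48.0 CPM. The 60 bases before the start are shown for 2 variable members with the motif, Cyp8b1 (chr9:121916306-121916365, minus strand, CV 30.0%) and Orm2 (chr4:63362389-63362448, plus strand, CV 51.4%), for 2 abundant ones, Fabp1 (chr6:71199819-71199878, plus strand, CV 18.9%) and Cyp2e1 (chr7:140763759-140763818, plus strand, CV 12.9%), and for Sec22b (chr3:97901167-97901226, plus strand, CV 2.14%), in which these letters are not found. Capitals mark the motif. These genes were picked as examples, and nothing about motif and spread is read from them. Cyp8b1 and Orm2 were highest in mice 6 and 5, which lacked weakly expressed genes.
Cyp8b1: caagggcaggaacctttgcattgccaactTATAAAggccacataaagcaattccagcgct
Orm2: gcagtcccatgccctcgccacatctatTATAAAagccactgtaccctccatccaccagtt
Fabp1: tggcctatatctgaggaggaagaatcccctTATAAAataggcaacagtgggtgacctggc
Cyp2e1: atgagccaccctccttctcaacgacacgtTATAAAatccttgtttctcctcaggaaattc
Sec22b: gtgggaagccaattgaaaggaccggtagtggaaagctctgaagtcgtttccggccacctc

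The E-box CACGTG, to which BMAL1 and CLOCK bind, was searched on both strands in the 300 bases around each start. It was found in 1 of the 10 clock members with a promoter (Tef), in 12.4% of members and in 8.09% of all genes. The window is short, and sites elsewhere were not searched.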

How the data were processed

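RNA was sequenced from frozen liver of 42 female APOE*3-Leiden mice as strand-specific libraries of polyadenylated RNA. The authors aligned reads to GRCm38 with STAR 2.5 after trimming with Trimmomatic and deposited raw read counts per gene from HTSeq-count 0.6.1p1, merged into 1 table with a column per library. Per the submitters' processing notes, DESeq2 was used for their own comparisons, which were not used here.

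The deposited counts of 54446 genes were read for all libraries, grouped by the diet label, and 0 columns of other samples were present. Rows that name no gene were left out of totals (on chow 2.41% without a feature, 5.80% ambiguous and 5.15% aligned to several places). Symbols and exon lengths came from GENCODE vM21, in which 54409 identifiers were found. CPM was computed from counts and TMM factors over all libraries (edgeR 4.0.16, R 4.3.3). CV, ranges and correlations used CPM of the 10 chow libraries, shares of counts describe what was sequenced, and levels of different genes were compared per exon length as TPM. Spread was tested with limma 3.58.1 on absolute deviations of log2 CPM (prior count 2) from the group median, multiplied by the factor for group size. Levels were tested with edgeR's quasi-likelihood test with robust dispersion and a 3-group model over all 42 libraries. In both, genes passed filterByExpr with a minimum count of 10 (total 15) and p-values were adjusted by Benjamini-Hochberg over all 15574 genes. Permutation tests used 100000 resamples, or every permutation for up to 8 mice. The steps were tested on simulated data. Of 200 genes with a level changed by 1 (log2) in WTD, 130 were recovered. Of 200 genes with a spread of SD 1 (log2) added in WTD, 50 were recovered. Each test called 1 unchanged gene. The simulation held no spread added on chow and no library that lacked weakly expressed genes, so these rates need not hold for these data. Python 3.11.15, scipy 1.17.1 and matplotlib 3.10.9 were used. Depth ranged from 17202366 to 35410623 counts on chow, and the member with the fewest had a mean of 352.7 counts. Intervals cover counting error only.

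Members and gene lists were chosen with earlier results of these data known. The genes named were the 20 members with the most counts and the 10 highest per exon length, the 20 highest and 15 lowest by CV, those next to 20 CPM, the highest, most and least variable member of each list, up to 5 called members with the largest and 5 with the smallest ratio of spread in each comparison, the genes of 12 pairs, and reference genes. Other members of the lists, Rbm3 and the 13 steady genes of all groups were named after their values were seen. Not every gene that the rule selects is printed. Alternatives were other scalings, thresholds, measures of spread, models, filters and sets of libraries, and DESeq2 1.42.0. Libraries without a count in over 20% of the weakly expressed genes were left out in one of them. Some members are not reported here.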

Additional observations from a re-analysis of the deposited data

Results flagged for a closer look

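For the genes and lists named in the text, the highest or lowest of the 10 chow-fed mice was compared with the nearest other mouse, and a gene is given here where that gap, as a share of the whole range, exceeded the 95% critical value of Dixon's test for 10 values. With normally distributed values chance gives such a gap in about 1 of 20 genes. That share does not apply here, since many of these genes were named for a high CV over the same 10 mice. The number of genes given is therefore not read against it. All values are CPM of the mouse that lay apart, and the difference was not tested further. In mouse 1, which held transcripts of skeletal muscle, these were Myh2 (429 CPM), Myh1 (695.9 CPM), Ckm (429.2 CPM), Acta1 (806.9 CPM), Mb (360.7 CPM), Tnnc2 (241.9 CPM), Atp2a1 (628.3 CPM), Ttn (247.4 CPM), Tnnt3 (600.3 CPM), Ighm (1337 CPM), Tpm2 (390.5 CPM), Slc25a4 (181.6 CPM), Des (188.8 CPM), Eno3 (111 CPM), Tpm1 (297.9 CPM) and Neb (110.9 CPM). Mouse 2, which lacked weakly expressed genes, lay apart for Cyp3a16 (241.5 CPM), Tuba1b (59.12 CPM) and Car3 (4650 CPM). Mouse 3 lay apart only for Rad51b (61.2 CPM) among the genes examined. Mouse 4 lay apart for Cyp2e1 (8302 CPM), Selenop (6216 CPM), mt-Nd1 (4713 CPM), Derl3 (116 CPM) and Itgav (29.27 CPM). Mouse 5, which lacked weakly expressed genes as well, lay apart for Saa1 (217.5 CPM), Junb (146.2 CPM), Cxcl9 (57.95 CPM), Sdsl (60.94 CPM), Psmb2 (86.91 CPM), Brd2 (176.5 CPM), Cebpb (60.69 CPM), Col1a1 (80.98 CPM), Il1r1 (74.91 CPM), Saa2 (86.2 CPM) and Serpina3n (533.8 CPM). For Dcn (313.8 CPM) it was mouse 6. For Aacs (180 CPM) it was mouse 9. For Cyp26a1 (245 CPM) it was mouse 10. Among the summed lists these were cholesterol synthesis and SREBP2 in mouse 9 (8982 CPM), MHC class II in mouse 1 (486.6 CPM), pericentral hepatocyte genes in mouse 4 (13450 CPM), B and plasma cell markers in mouse 1 (1643 CPM), neutrophil markers in mouse 2 (29.08 CPM), adipose markers in mouse 2 (4650 CPM) and skeletal muscle in mouse 1 (5915 CPM). Single genes carried some of these sums. The pericentral sum without Cyp2e1 was 5143 CPM in mouse 4 and 4323 to 5007 CPM in the others. The neutrophil sum in mouse 2 was mostly Csf3r (22.5 CPM), without which it was 6.58 CPM, as in mouse 5. In mouse 2 this rest was S100a9 (6.58 CPM, against 0.128 to 2.21 CPM in the other mice). S100a8, Mpo, Camp, Elane, Mmp8 and Retnlg had no count in mouse 2, and each had none in several other mice as well. The adipose list had 1 member, Car3, and Adipoq was listed at 0. Below 20 CPM, Cfd (10.1 CPM), Retn (2.05 CPM) and Plin1 (1.64 CPM) were highest in mouse 1. In the other mice Cfd had at most 0.882 CPM, and Retn and Plin1 had no count. The part of other tissue or cells, or of library preparation, in these values was not tested.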

How the results depend on the processing

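No paired analysis was possible because replicate numbers were given in accession order and carry no pairing. The number of members was between 6000 and 6986 under other scalings, between 6448 and 6478 with 1 mouse left out, 6405 with the median and 4714 with at least 20 CPM in each mouse. The median CV of 18.3% was 13.7% when libraries with over 20% of weakly expressed genes uncounted were left out, 13.1% without mouse 1 as well (chosen after the data were seen), 20.9% and 14.7% with a minimum of 10 and 50 CPM and 15.3% from the median absolute deviation, and 16.3% to 18.8% with 1 mouse left out. Of 178 named genes, the CV moved by more than its error for 63 over the 6 mice (57 lower), and for 72 of 170 with a value from the median absolute deviation.

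The counts of members with a different spread depended on the settings. Against WTD, 4 members became 66 with deviations from the group mean, 8 with squared deviations, 0 with the 2 groups alone (limma, 242 at an unadjusted p under 0.05), 0 at an adjusted p under 0.01, 0 without these libraries (limma, 211 at an unadjusted p under 0.05) and 0 to 3 with 1 chow-fed mouse left out (0 without mouse 7). Against WTD with atorvastatin, 10 became 317, 21, 5 without a filter, 0 at an adjusted p under 0.01, 0 without those libraries (limma, 354 at an unadjusted p under 0.05), and 1 to 10 with 1 mouse left out (1 without mouse 2, 5 or 6). The cause was not tested. The difference in distance between mice reversed without those libraries, to -0.00427 and -0.000435. Of the 2 correlations 1 remained without the 2 farthest mice, that of H2-Aa and Cd74.

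Calls of level were 2671 to 3344 and 2160 to 2553 over the alternatives at an adjusted p under 0.01. DESeq2 called 2980 (1035 higher and 1945 lower) and 2454 (909 and 1545). Upper-quartile factors gave 643 higher and 2701 lower, and 621 and 1932. From the mean scaling factors of the groups, upper-quartile factors shift all log2 fold changes by -0.10 against TMM in both comparisons. Totals without factors would shift them by 0.31 and 0.14, and no level test was run with these. Directions of small differences thus depend on the scaling.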
